A study of Mus musculus with 12 samples.

Results

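The MAP kinase phosphatases of the dual-specificity phosphatase (DUSP) family were followed here through 9 listed genes, Dusp1, Dusp2, Dusp4, Dusp5, Dusp6, Dusp7, Dusp8, Dusp10 and Dusp16. Each was read from the row of the deposited table that carries its symbol, so the 9 members are 9 of 24062 entries, and all 9 were among the 11440 entries tested. The cells were primary bone marrow derived macrophages of wild-type C57Bl/6 mice at passage 1, in 4 groups of 3 messenger RNA libraries. The groups received C-178 (a covalent small-molecule inhibitor of STING, the adaptor that relays sensing of cytosolic DNA) together with CMA (a STING agonist that acts on the mouse protein), CMA alone, C-178 alone, or no stimulation. The treatments lasted 2 h, and every level below is a snapshot at that time. The labels do not say whether replicates came from separate cultures or mice, so the p-values measure the spread between these libraries, which may be technical.

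These enzymes remove phosphate from both the threonine and the tyrosine of the activation loop of a MAP kinase and so switch it off. They are commonly sorted by place and substrate: the inducible nuclear enzymes DUSP1, DUSP2, DUSP4 and DUSP5, the cytoplasmic ERK-selective enzymes DUSP6 and DUSP7, and DUSP8, DUSP10 and DUSP16, which prefer JNK and p38. In macrophages DUSP1 is known as a brake on cytokine production, and many of the genes are themselves induced by the kinases their products inactivate, a form of negative feedback.

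The promoters of 5 members are shown because these genes gave the largest rises and the largest fall with CMA, or, for Dusp1, a change that turned direction with C-178. Each run is 250 bases before to 50 bases after a transcription start, from RefSeq on build GRCm38.p6 and written 5′ to 3′ on the strand of the gene. RefSeq windows were matched for 8 members. Capitals mark the cyclic AMP response element (CRE) core TGACG on either strand and, in Dusp5, the CArG box bound by serum response factor. The windows are chr17:26508423-26508722 (minus strand) for Dusp1, chr2:127335909-127336208 (plus) for Dusp2, chr19:53528895-53529194 (plus) for Dusp5, chr6:134792579-134792878 (minus) for Dusp16 and chr9:106368382-106368681 (plus) for Dusp7.
Dusp1: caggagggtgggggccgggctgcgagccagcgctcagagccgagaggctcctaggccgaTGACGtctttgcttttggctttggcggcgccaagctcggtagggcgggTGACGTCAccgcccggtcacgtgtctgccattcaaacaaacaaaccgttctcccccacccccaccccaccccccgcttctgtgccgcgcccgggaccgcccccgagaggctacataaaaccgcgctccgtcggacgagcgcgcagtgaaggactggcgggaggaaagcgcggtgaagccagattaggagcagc
Dusp2: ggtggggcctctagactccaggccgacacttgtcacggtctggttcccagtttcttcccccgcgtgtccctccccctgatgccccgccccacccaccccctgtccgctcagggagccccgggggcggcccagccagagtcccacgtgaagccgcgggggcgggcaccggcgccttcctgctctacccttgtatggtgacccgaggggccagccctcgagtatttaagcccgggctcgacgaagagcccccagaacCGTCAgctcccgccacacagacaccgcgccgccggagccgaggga
Dusp5: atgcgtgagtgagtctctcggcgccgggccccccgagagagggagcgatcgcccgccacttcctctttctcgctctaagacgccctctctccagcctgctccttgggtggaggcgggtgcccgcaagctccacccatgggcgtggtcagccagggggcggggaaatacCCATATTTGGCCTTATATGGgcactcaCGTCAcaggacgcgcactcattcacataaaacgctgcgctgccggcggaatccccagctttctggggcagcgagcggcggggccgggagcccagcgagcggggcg
Dusp16: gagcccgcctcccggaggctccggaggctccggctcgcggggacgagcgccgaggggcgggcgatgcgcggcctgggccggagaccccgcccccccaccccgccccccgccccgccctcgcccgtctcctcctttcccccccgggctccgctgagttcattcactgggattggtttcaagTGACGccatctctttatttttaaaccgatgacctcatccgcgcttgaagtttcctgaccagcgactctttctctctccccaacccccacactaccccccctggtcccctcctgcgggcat
Dusp7: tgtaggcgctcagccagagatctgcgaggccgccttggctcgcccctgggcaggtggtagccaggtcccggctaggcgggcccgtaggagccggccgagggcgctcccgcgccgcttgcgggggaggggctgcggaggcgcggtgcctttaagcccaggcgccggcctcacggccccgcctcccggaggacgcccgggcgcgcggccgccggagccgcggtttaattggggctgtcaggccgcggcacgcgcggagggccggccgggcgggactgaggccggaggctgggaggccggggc

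A CRE core was in 5 of the 8 windows (Dusp1, Dusp2, Dusp5, Dusp8 and Dusp16), against 20.8% of all 32851 promoter windows. The full palindrome TGACGTCA, which contains that core on both strands, was in the Dusp1 window 143 bases before the start and at 107 and 63 bases before the start of Dusp8, against 1.79% of all windows. Dusp5 carried a pair of adjoining CArG boxes 82 and 72 bases before its start, and 1.63% of all windows held one. The AP-1 motif TGANTCA (7.81% of all windows), the ISRE core GAAANNGAAA (3.44%), TATAAA (13.6%) and the kappaB motif (8.46%) were in none of the 8 windows on either strand. The windows of Dusp6, Dusp7 and Dusp10 had none of the motifs searched, at a GC content of 57.3%, 78.7% and 61.0%. A match is a string of letters and no measured site, and a window without one says only that these letters are not in it.

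Levels are given as normalised counts, the unit of the deposited table. Recovered reads per library, in M, ran from 7.77 to 36.4 M with C-178 plus CMA, 7.13 to 7.83 M with CMA, 7.05 to 28.5 M with C-178 and 13.9 to 17.4 M without stimulation. Each of 18 macrophage markers exceeded a mean of 100 normalised counts in all 4 groups. The 15 fibroblast markers, checked because the extraction text of the labels speaks of embryonic fibroblasts, summed to 9266 to 12180 normalised counts with C-178 plus CMA, 10240 to 10650 with CMA, 8087 to 9257 with C-178 and 8112 to 8821 without stimulation, most of it Vim, which macrophages also express. Of these 15, 6 exceeded a mean of 100 with C-178 plus CMA, 7 with CMA, 7 with C-178 and 6 without stimulation. Only Lum and Mfap5, fibroblast matrix genes, had no reads in the groups C-178 plus CMA, CMA and no stimulation. Of 13 fibroblast markers tested, 3 were called up and 1 down with CMA against no stimulation (37.3% of all genes tested were called). With C-178 plus CMA against CMA, 3 were called down and 0 up (24.1% of all genes tested were called). The 12 neutrophil markers summed to 1132 to 1432 normalised counts with C-178 plus CMA, 1274 to 1435 with CMA, 1337 to 1349 with C-178 and 1295 to 1744 without stimulation. The 9 lymphoid markers summed to 695 to 935 with C-178 plus CMA, 738 to 883 with CMA, 852 to 961 with C-178 and 995 to 1120 without stimulation. Each treated group, C-178 alone included, was thus below the unstimulated one with no overlap. Replicates differed most with C-178 plus CMA, where chi-square per gene between libraries was 68.0 to 114.5, against 2.35 to 26.6 within the other groups. The part of other cells in the results below was not tested, and in these bulk samples fewer expressing cells and less RNA per cell cannot be told apart. A change is a log2 difference of normalised count + 1 with its SE from limma, called at a Benjamini-Hochberg adjusted p under 0.05. The SE and p rest on a spread estimated per gene over all 4 groups together, although replicates differed most with C-178 plus CMA. With 3 libraries against 3, an exact permutation test of 1 gene cannot go below p = 0.1. The comparisons share libraries with one another and are not independent.

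CMA alone changed 7 of the 9 genes at 2 h. Compared with no stimulation, 5 of the 9 members rose (Dusp16, Dusp2, Dusp5, Dusp10 and Dusp1) and 2 fell (Dusp7 and Dusp6), while Dusp4 and Dusp8 were not called. Over all genes tested, 37.3% were called, 19.4% up and 17.9% down. The median log2 change was 1.29 over the 9 members and -0.01 over all genes tested. The member median is the value of Dusp8, which was not called and passed the filter only through libraries that received CMA. With members changing in both directions, it does not show a shared shift. The libraries of the 2 groups did not overlap for 8 of the 9 members, against 61.8% of all genes tested. The plot of levels by library shows each member on its own scale.

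**Figure D1:**
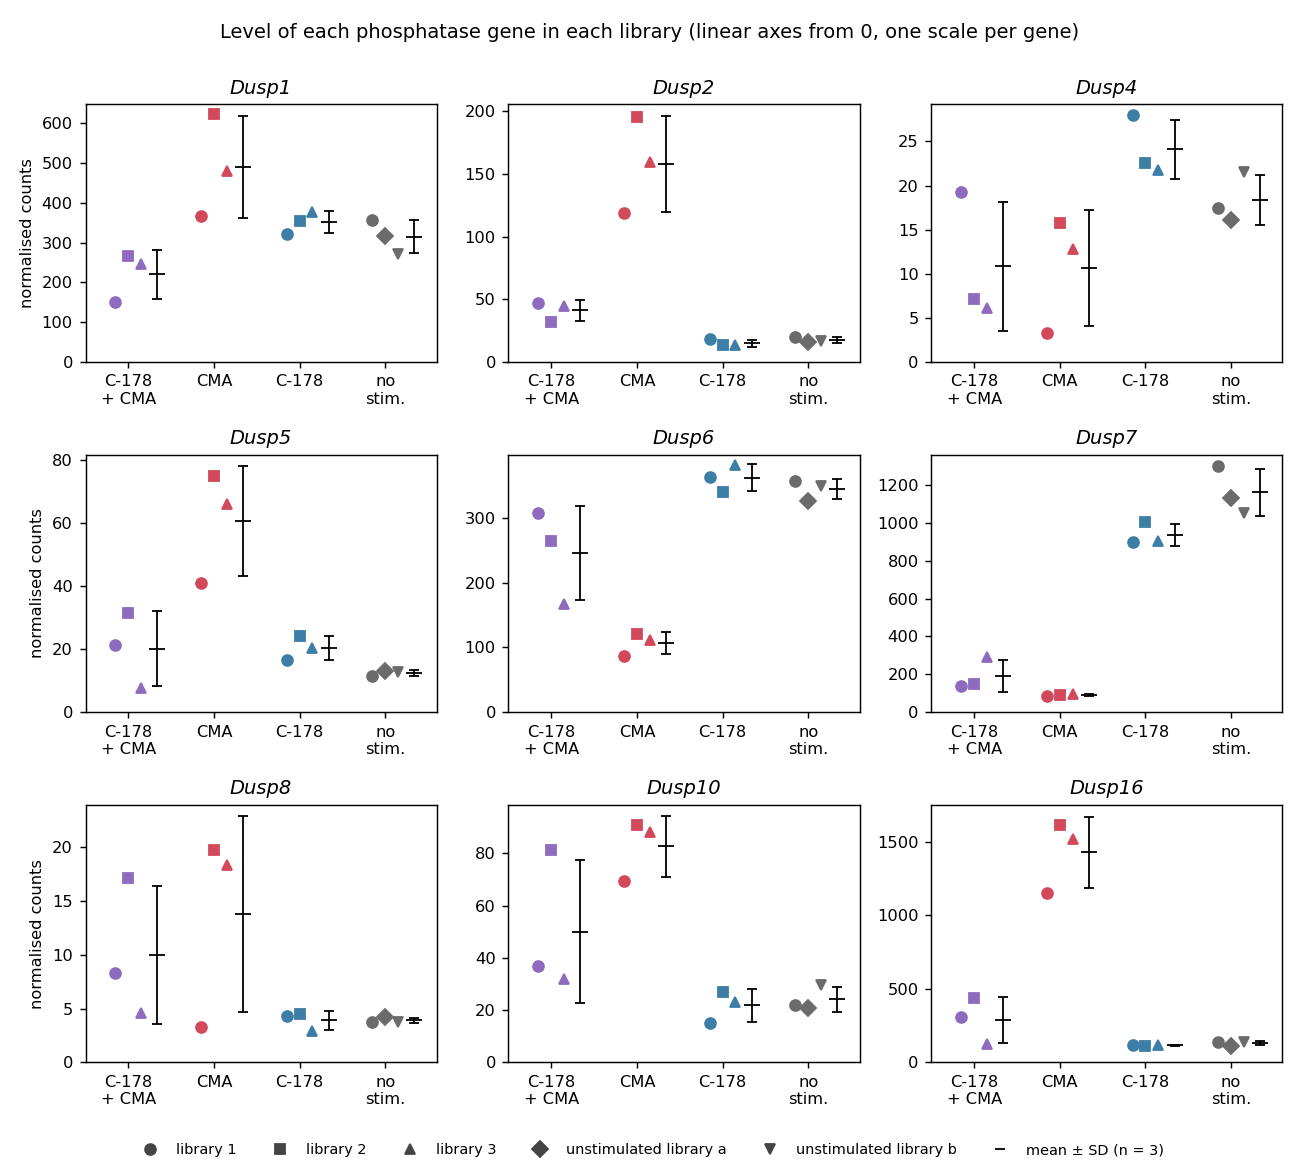
Normalised counts (vertical axes, linear from 0) of the 9 phosphatase genes in every library, by group, with the mean and SD of 3 libraries beside each group. Dusp16, Dusp2, Dusp5 and Dusp10 are highest with CMA, Dusp6 and Dusp7 lowest with CMA, and the C-178 plus CMA libraries are spread widely for Dusp5, Dusp7, Dusp10 and Dusp16.

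Among the JNK and p38-selective enzymes, Dusp16 (chr6:134715468-134792625, minus strand, mm10), whose product MKP-7 acts mainly on JNK, made the largest rise of any member. It stood at 1155, 1613 and 1522 normalised counts in the CMA libraries, against 140.6, 114.1 and 136.0 in the unstimulated ones. Every CMA library was far above every unstimulated one, an 11.0-fold higher mean (log2 change 3.44 ± 0.33, adjusted p = 1.54e-06, limma). Dusp10 (chr1:184013302-184075636, plus strand), which encodes the JNK and p38 phosphatase MKP-5, had 69.2, 90.8 and 88.1 normalised counts with CMA, against 22.05, 20.9 and 29.7 without stimulation. The groups were again apart, with a 3.41-fold higher mean (log2 change 1.74 ± 0.33, adjusted p = 0.000854, limma).

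Dusp8 (chr7:142079490-142095843, minus strand), another JNK and p38 phosphatase, had few reads in these libraries. It had 3.30, 19.7 and 18.4 normalised counts with CMA, which are 2, 10 and 10 reads, against 3.80, 4.18 and 3.80 without stimulation. The groups overlapped through CMA library 1, and the change was not called (log2 change 1.29 ± 0.59, adjusted p = 0.107, limma). Without CMA library 1 it was called, with a log2 change of 2.03 and an adjusted p of 0.00636, and with all libraries it was called by edgeR (0.029), by DESeq2 (0.0221) and with array weights (0.000976). Dusp8 passed the filter on low values only through CMA libraries 2 and 3 and C-178 plus CMA library 2.

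Of the inducible nuclear enzymes, Dusp2 (chr2:127336159-127338376, plus strand), which encodes the phosphatase PAC-1 of activated leukocytes, rose most. It stood at 118.7, 195.4 and 159.7 normalised counts with CMA, against 19.8, 15.5 and 16.4 without stimulation. The groups did not come near each other, and the mean was 9.16-fold higher (log2 change 3.10 ± 0.25, adjusted p = 3.53e-07, limma). Dusp5 (chr19:53529109-53542431, plus strand), which encodes a nuclear ERK phosphatase, had 41.2, 75.0 and 66.1 normalised counts with CMA, against 11.4, 13.1 and 12.7 without stimulation. All 3 CMA libraries were higher (4.90-fold, log2 change 2.16 ± 0.41, adjusted p = 0.000784, limma). Exons of the antisense gene AC137853.2 overlap Dusp5 on the other strand, and the sources used here do not state the strand setting of the counting, so the 2 genes' reads cannot be told apart with certainty.

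Dusp1 (chr17:26505590-26562128, minus strand), which encodes MKP-1, rose least. Its levels were 365.9, 623.7 and 480.9 normalised counts with CMA, against 355.8, 315.9 and 272.1 without stimulation. The lowest CMA library lay just above the highest unstimulated one, and the 1.56-fold higher mean passed the threshold narrowly (log2 change 0.61 ± 0.22, adjusted p = 0.0448, limma). Leaving out 1 library ended that call for 5 of the 6 libraries: the adjusted p was 0.203 without CMA library 2, 0.102 without CMA library 3, and 0.0547, 0.0993 and 0.154 without unstimulated libraries 1, a and b. It also ended without the filter on low values (0.0638) and with quantile normalisation (0.0575).

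Dusp4 (chr8:34807297-34819894, plus strand), which encodes MKP-2, did not follow the other nuclear enzymes. It had 3.30, 15.8 and 12.8 normalised counts with CMA, against 17.5, 16.1 and 21.5 without stimulation. All CMA libraries were lower, by little in library 2, and the change was not called (log2 change -0.94 ± 0.50, adjusted p = 0.157, limma, 95% interval -2.02 to 0.13). Each CMA library held 2 to 8 reads of Dusp4.

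Both cytoplasmic ERK-selective genes fell with CMA. Dusp7 (chr9:106368632-106375724, plus strand), which encodes MKP-X, had 84.1, 88.8 and 93.6 normalised counts with CMA, against 1300, 1132 and 1055 without stimulation. The CMA libraries agreed closely and their mean was 13.1-fold lower (log2 change -3.69 ± 0.22, adjusted p = 1.61e-08, limma), the largest change of any member in either direction. Dusp6 (chr10:99263231-99267489, plus strand), which encodes the ERK phosphatase MKP-3, had 87.4, 120.4 and 112.0 normalised counts with CMA, against 357.3, 326.6 and 349.2 without stimulation. The groups were well apart, with a 3.23-fold lower mean (log2 change -1.70 ± 0.20, adjusted p = 1.27e-05, limma).

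Because reads scale with transcript length, levels of different members were compared per kb of merged exon. Without stimulation Dusp7 led with 361.7 ± 39.0 normalised counts per kb (SD, n = 3). Dusp1 (132.6 ± 17.7) and Dusp6 (123.1 ± 5.69) followed, and these neighbours did not differ beyond their spread. Dusp16 (17.3 ± 1.89), Dusp2 (10.7 ± 1.38), Dusp10 (8.68 ± 1.72), Dusp4 (6.71 ± 1.02), Dusp5 (5.01 ± 0.36) and Dusp8 (0.82 ± 0.05) came after them in normalised counts per kb, with the spreads of Dusp2, Dusp10 and Dusp4 touching in that order.

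With CMA the order per kb was another one. Dusp1 (206.6 ± 54.4 normalised counts per kb) and Dusp16 (190.1 ± 32.2) led and lay within each other's spread. Dusp2 came next at 97.7 ± 23.7 per kb, apart from its neighbours. Dusp6 (38.1 ± 6.14), Dusp10 (29.6 ± 4.21), Dusp7 (27.7 ± 1.49) and Dusp5 (24.6 ± 7.08) followed per kb. Dusp6 was above Dusp10 in each of the 3 CMA libraries, while Dusp10, Dusp7 and Dusp5 overlapped one another. Dusp4 (3.89 ± 2.38 per kb) and Dusp8 (2.87 ± 1.90 per kb) were lowest and also overlapped.

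The sum of the 9 levels per kb differed little between these groups, at 621 ± 131 normalised counts per kb with CMA and 667 ± 59 without stimulation, within the spread of the CMA libraries. Its make-up turned over. Dusp7 held 4.57% ± 0.85 of the sum with CMA, against 54.2% ± 1.18 without stimulation. Dusp16 held 30.8% ± 1.64 with CMA, against 2.60% ± 0.29 without stimulation. The cytoplasmic ERK-selective pair together made up 10.8% with CMA, against 72.7% without stimulation. The nuclear enzymes made up 53.2% with CMA, against 23.2% without stimulation, and the JNK and p38-selective ones 36.1%, against 4.04%. These shares are descriptions of transcripts, not of enzyme.

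**Figure D2:**
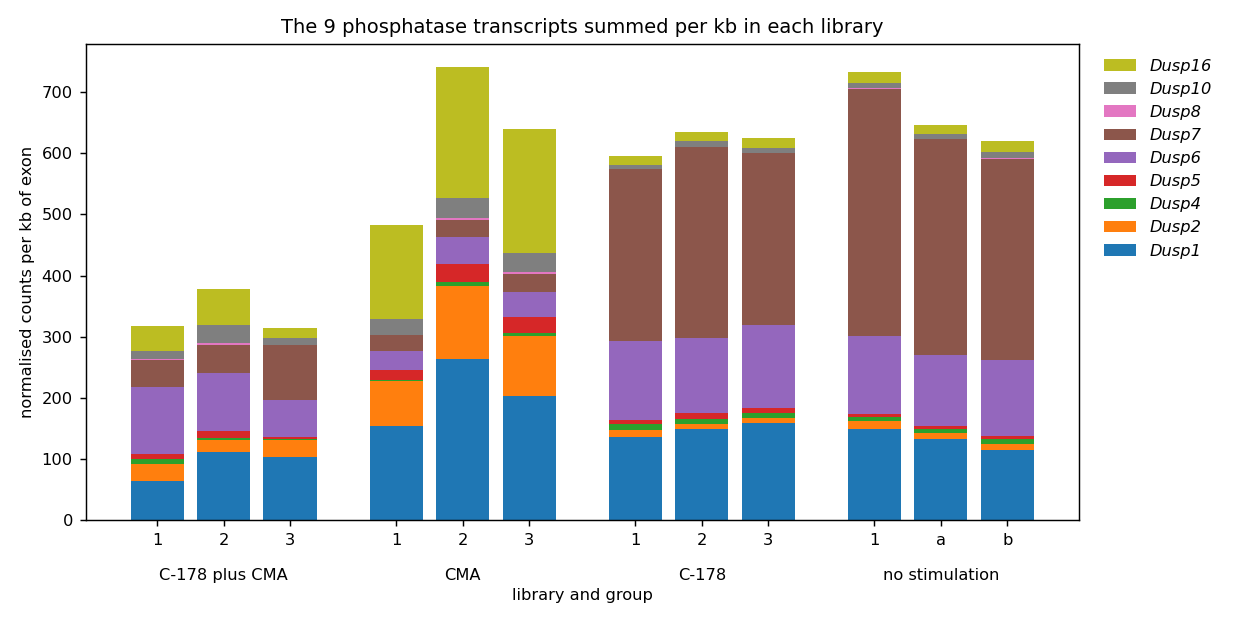
Summed level of the 9 phosphatase genes in each library (vertical axis, normalised counts per kb of exon, stacked by gene) for the 4 groups. Dusp7 makes up 54.2% of the unstimulated bars on average and 4.57% of the CMA bars, and the C-178 plus CMA bars are the lowest, at 337 ± 36.

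C-178 by itself asks what the inhibitor does to these genes without an agonist. None of the 9 members was called up or down against no stimulation (limma), nor did any have an unadjusted p under 0.05. edgeR and DESeq2 on the recovered reads called 0 of 9 as well. Over all genes tested 0.0962% were called, all of them up (0.0962%) and 0% down. At an unadjusted p under 0.05 there were 238 genes up and 182 down. Dusp7 had 900.7, 1003 and 902.3 normalised counts with C-178, against 1300, 1132 and 1055 without stimulation. All 3 C-178 libraries were lower, and the difference was not called (log2 change -0.31, 95% interval -0.78 to 0.16). Dusp5 had 16.5, 24.1 and 20.3 normalised counts with C-178, against 11.4, 13.1 and 12.7 without stimulation, again apart and not called (log2 change 0.66, 95% interval -0.22 to 1.54). Dusp4 was the third member whose groups did not overlap, at 21.8 to 28.0 with C-178 against 16.1 to 21.5. Such a separation was seen for 3 of the 9 members and for 15.6% of all genes tested. With array weights, Dusp5 rose (adjusted p = 0.0293) and Dusp7 fell (0.017), in a fit that called 823 genes up and 1026 down. The intervals of the other 6 members did not reach a log2 change of 1 on either side, except for Dusp8 (-1.30 to 1.26).

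How much of the agonist's effect the inhibitor removed is the question put by C-178 plus CMA against CMA. For 6 of the 9 members a change was called, in each case against the one made by CMA. Dusp16, Dusp2, Dusp5 and Dusp1 fell, and Dusp6 and Dusp7 rose. The uncalled log2 changes of Dusp10 (-0.83), Dusp8 (-0.29) and Dusp4 (0.08) also pointed against those made by CMA. Both comparisons use the same CMA libraries. Over all genes tested 24.1% were called, 10.6% up and 13.5% down. The median log2 change was -0.83 over the members, the value of Dusp10, which was not called, and 0.00 over all genes tested. The libraries of the groups did not overlap for the 6 called members, against 35.5% of all genes tested.

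Dusp16 stood at 308.0, 436.9 and 125.3 normalised counts with C-178 plus CMA, against 1155, 1613 and 1522 with CMA. Every library with the inhibitor was lower, but they were uneven: library 3 lay among the unstimulated values and library 2 was highest. The mean was 4.93-fold lower (log2 change -2.46 ± 0.33, adjusted p = 0.000277, limma), and without library 3 the log2 change was -1.95 (adjusted p = 1.94e-05).

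Dusp2 had 47.1, 31.4 and 44.3 normalised counts with C-178 plus CMA, against 118.7, 195.4 and 159.7 with CMA. The groups were well apart (3.86-fold lower, log2 change -1.91 ± 0.25, adjusted p = 0.000259, limma). Dusp1 fell to 150.5, 265.6 and 246.0 normalised counts with C-178 plus CMA, against 365.9, 623.7 and 480.9 with CMA. All 3 were below every other library of the study, the unstimulated ones included, though against no stimulation the difference was not called (log2 change -0.54 ± 0.22, adjusted p = 0.103). Against CMA the fall was called (2.22-fold lower, log2 change -1.16 ± 0.22, adjusted p = 0.00319, limma).

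Dusp5 had 21.2, 31.4 and 7.64 normalised counts with C-178 plus CMA, against 41.2, 75.0 and 66.1 with CMA. The groups did not overlap, and library 3 was below every unstimulated library (3.02-fold lower than CMA, log2 change -1.70 ± 0.41, adjusted p = 0.0104, limma). Without CMA library 2 the adjusted p was 0.0519, and in a fit of these 2 groups alone it was 0.0654. Dusp10 was less clear, at 36.8, 81.4 and 32.1 normalised counts with C-178 plus CMA against 69.2, 90.8 and 88.1 with CMA. Library 2 overlapped the CMA libraries, and the change was not called (log2 change -0.83 ± 0.33, adjusted p = 0.0832, limma). Without that library the log2 change was -1.23 and the adjusted p 0.00449.

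In the other direction, Dusp6 had 307.7, 264.2 and 166.5 normalised counts with C-178 plus CMA, against 87.4, 120.4 and 112.0 with CMA. All libraries with the inhibitor were higher (2.31-fold, log2 change 1.17 ± 0.20, adjusted p = 0.00159, limma). Dusp7 had 139.6, 147.1 and 288.8 normalised counts with C-178 plus CMA, against 84.1, 88.8 and 93.6 with CMA. The groups were apart, with library 3 the highest (2.16-fold, log2 change 1.02 ± 0.22, adjusted p = 0.0058, limma), and the log2 change was 0.69 without library 3 (adjusted p = 0.00269). In a fit of these 2 groups alone the Dusp7 call ended, at an adjusted p of 0.0624. Dusp4 (19.2, 7.14 and 6.11 normalised counts with C-178 plus CMA) and Dusp8 (8.29, 17.1 and 4.58) overlapped their CMA levels and were not called.

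**Figure D3:**
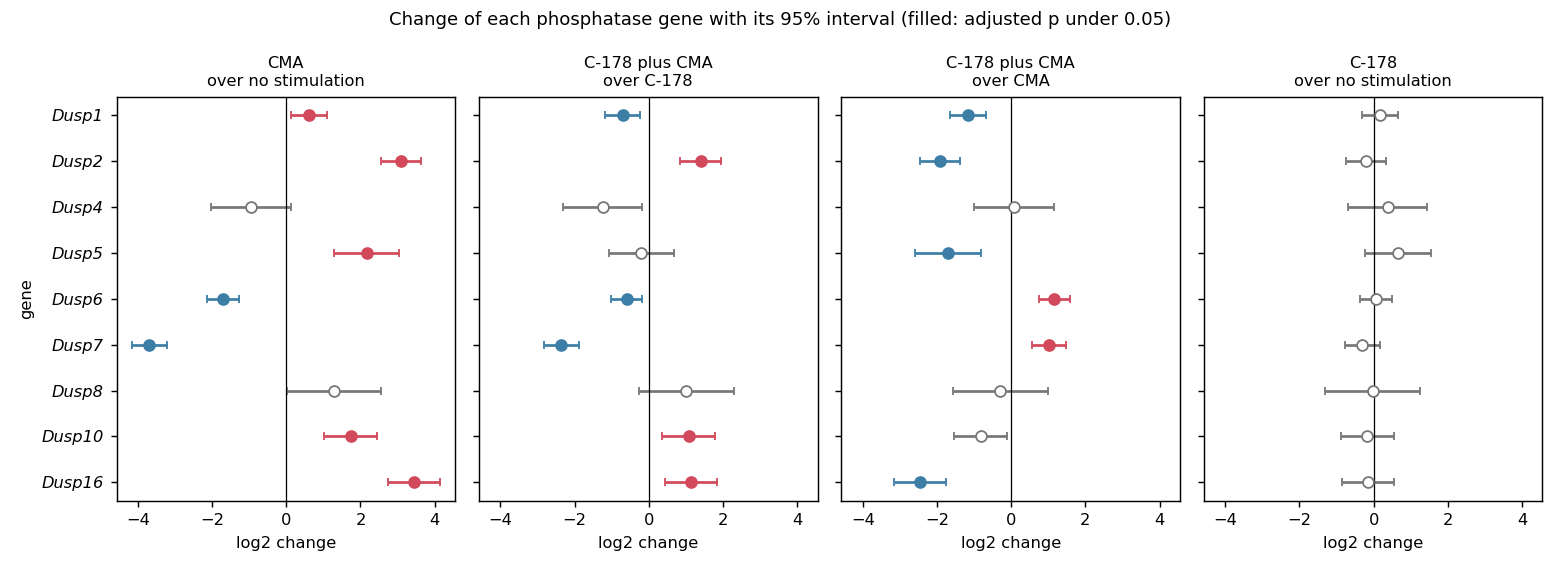
Log2 change (horizontal axes) of the 9 phosphatase genes with its 95% interval in 4 comparisons, filled where the adjusted p was under 0.05. Dusp1 lies at 0.61 for CMA over no stimulation and at -0.71 for C-178 plus CMA over C-178, and the intervals in the last panel all include 0.

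What CMA still did in the presence of the inhibitor was read from C-178 plus CMA against C-178. Dusp2, Dusp10 and Dusp16 rose, and Dusp7, Dusp1 and Dusp6 fell, so 6 of 9 members were called. The libraries did not overlap for 8 of 9 members, against 34% of all genes tested. Dusp8 was among the 8 by a hair, its lowest value being 4.58 with C-178 plus CMA and its highest 4.52 with C-178, from 3 reads each. It passed the filter only through libraries that received CMA. Over all genes tested 26.1% were called, 13.5% up and 12.6% down, and the median log2 change was -0.20 over the members and 0.01 over all genes tested.

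Dusp7 kept most of its fall, at 139.6, 147.1 and 288.8 normalised counts with C-178 plus CMA against 900.7, 1003 and 902.3 with C-178 (4.88-fold lower, log2 change -2.36 ± 0.22, adjusted p = 2.99e-06, limma). All 3 libraries with both compounds were far below every C-178 library. Its log2 change with the inhibitor present was 64.0% of that without it. The same share was 45.0% for Dusp2, which had 47.1, 31.4 and 44.3 normalised counts with C-178 plus CMA against 17.9, 13.6 and 13.1 with C-178 (log2 change 1.40 ± 0.25, adjusted p = 0.00108, limma). It was 62.1% for Dusp10, 35.3% for Dusp6 and 32.8% for Dusp16. Differences between members in this share were not tested.

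The calls for Dusp10, Dusp16, Dusp6 and Dusp1 were narrow. In a limma fit of these 2 groups alone each of them ended (adjusted p = 0.124, 0.105, 0.146 and 0.0911 in that order). Without the filter on low values those of Dusp10 (0.0572), Dusp6 (0.0621) and Dusp1 (0.0515) ended. With array weights those of Dusp10 (0.0594) and Dusp6 (0.0755) ended. The Dusp10 call also ended with thinned reads (0.0761) and the Dusp6 call with edgeR (0.0518). Dusp16 (log2 change 1.13 ± 0.33, adjusted p = 0.0212, limma) missed the threshold without C-178 library 2 (0.0685) or 3 (0.0545) and without C-178 plus CMA library 1 (0.068) or 2 (0.056), and its log2 change was 1.64 without C-178 plus CMA library 3 (adjusted p = 1.04e-05). Dusp10 (1.08 ± 0.33, adjusted p = 0.029) missed it without C-178 library 1 (0.105) or 3 (0.0567) and without C-178 plus CMA library 2, where the log2 change was 0.67 (0.0799). Dusp6 (-0.60 ± 0.20, adjusted p = 0.0415) missed it without C-178 library 1 (0.0843), 2 (0.0797) or 3 (0.116) and without C-178 plus CMA library 3, where the log2 change was -0.34 (0.115). With the replicate number as a block, which the library numbers allow for these 2 groups, Dusp6 missed it as well (adjusted p = 0.0853). Dusp5 was not called (log2 change -0.20, 95% interval -1.08 to 0.68). Nor was Dusp4 (-1.24 ± 0.50, adjusted p = 0.0814), except without C-178 plus CMA library 1 (-1.71, 0.0258).

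Dusp1 took the opposite direction in the 2 settings. It had 150.5, 265.6 and 246.0 normalised counts with C-178 plus CMA, against 322.0, 355.3 and 376.3 with C-178. All libraries with both compounds were lower (1.59-fold, log2 change -0.71 ± 0.22, adjusted p = 0.0327, limma), whereas CMA alone gave the narrow rise described above. The fall missed the threshold without C-178 library 2 (0.0894) or 3 (0.0992) and without C-178 plus CMA library 1, where the log2 change was -0.45 (0.115).

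The interaction, the CMA effect with C-178 minus that without, was called for 6 of 9 members, against 9.94% of all genes tested (3.95% positive and 5.99% negative). It was negative for Dusp5 (log2 -2.36 ± 0.58, adjusted p = 0.0254), Dusp16 (-2.31 ± 0.46, 0.0104), Dusp2 (-1.70 ± 0.35, 0.0128) and Dusp1 (-1.32 ± 0.32, 0.0227). It was positive for Dusp7 (1.33 ± 0.31, 0.0202) and Dusp6 (1.10 ± 0.28, 0.0305). Dusp10 was not called, with an interval of -1.67 to 0.35, so a loss of its CMA response was not shown. The median was -0.66 over the members, again the value of the uncalled Dusp10, and 0.01 over all genes tested. With the replicate number as a block, in a fit that holds 1 unstimulated library, none of the 6 was called (adjusted p = 0.303 for Dusp1, 0.25 for Dusp2, 0.218 for Dusp5, 0.283 for Dusp6, 0.12 for Dusp7 and 0.16 for Dusp16), with each sign as before. The calls of Dusp2 and Dusp16 held without any 1 library in the fit with no block. No member was positive without unstimulated library 1 or a, C-178 library 3 or CMA library 2, and 1 was positive without unstimulated library b, C-178 library 2, CMA library 1 or 3, or C-178 plus CMA library 1. Only 2 were negative without unstimulated library a or b, C-178 library 2 or 3, or CMA library 2 or 3. Without C-178 plus CMA library 2, 5 were negative, Dusp10 among them (-1.06, adjusted p = 0.0476).

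Between cells that received both compounds and unstimulated cells, 3 of the 9 members were called. Over all genes tested 21.5% were called, 11.1% up and 10.5% down. The libraries did not overlap for 6 of 9 members, against 34.5% of all genes tested. Dusp8, which passed the filter only through libraries that received CMA, was among the 6. Its lowest value was 4.58 with C-178 plus CMA (3 reads) and its highest 4.18 without stimulation (7 reads). Dusp2 rose (2.37-fold higher mean, log2 change 1.19 ± 0.25, adjusted p = 0.0035, limma). Dusp7 fell (6.06-fold lower, log2 change -2.67 ± 0.22, adjusted p = 9.77e-07, limma). Dusp16 rose on the test (log2 change 0.98 ± 0.33, adjusted p = 0.0462, limma), although library 3 lay within the unstimulated range. That call ended without any 1 of the unstimulated libraries 1, a and b (0.0921, 0.147 and 0.098) and without C-178 plus CMA library 1 (0.127) or 2 (log2 change 0.60, 0.132), and stood at a log2 change of 1.49 without library 3 (2.52e-05). Without library 3, Dusp5 (1.00, adjusted p = 0.0266) and Dusp10 (1.16, 0.0204) rose too. With all libraries Dusp10 was not called (0.91 ± 0.33, adjusted p = 0.0673), but it was called by edgeR (0.0405), by DESeq2 (0.0215), with quantile normalisation (0.0479) and with thinned reads (0.03). Dusp1 fell without C-178 plus CMA library 2 (-0.70, adjusted p = 0.0393) and Dusp6 without library 1 (-0.71, 0.0214).

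The sum of the 9 levels was lowest with both compounds, at 337 ± 36 normalised counts per kb, against 621 ± 131 with CMA, 619 ± 20 with C-178 and 667 ± 59 without stimulation. No library of the other groups reached down to it. Dusp1 (27.5% ± 6.72) and Dusp6 (26.2% ± 7.94) held the largest shares, and Dusp7 held 18.1% ± 9.06, against 47.0% ± 2.10 with C-178.

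The rest of the DUSP family and of the MAP kinase pathway was followed through lists written from general knowledge. Of the 17 other DUSP entries, 9 passed the filter, of which 2 rose and 3 fell with CMA, a median log2 change of -0.12. For all genes tested the shares were 19.4% up and 17.9% down. Dusp22, a phosphatase linked to JNK signalling, fell with CMA (-1.72 ± 0.20, adjusted p = 1.21e-05) and was higher with C-178 plus CMA than with CMA (1.05 ± 0.20, 0.00313). Dusp3, which encodes the ERK and JNK phosphatase VHR, fell to 453 ± 33.8 normalised counts with CMA, against 911 ± 64.5 without stimulation (adjusted p = 1.06e-05). Dusp28 rose (1.40 ± 0.23, 0.000227). Among other phosphatases of MAP kinases, Ptpn7, a tyrosine phosphatase of ERK and p38 in blood cells, fell with CMA to 354 normalised counts, against 1138 without stimulation (-1.69 ± 0.13, adjusted p = 3.05e-07), and Ppm1b rose slightly (0.44 ± 0.14, 0.0228).

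Among the MAP kinases themselves, 9 were tested, of which 2 rose and 3 fell with CMA (median log2 change -0.08). Mapk7, which encodes ERK5, fell (-1.71 ± 0.19, adjusted p = 7.57e-06), as did Mapk14 (p38 alpha, -0.71 ± 0.13) and Mapk3 (ERK1, -0.44 ± 0.11). Mapk6, which encodes the atypical kinase ERK3, rose (0.80 ± 0.15, adjusted p = 0.000792). Of 7 MAP kinase kinases 2 rose and 2 fell. Both counts stand beside 19.4% up and 17.9% down over all genes tested. Map2k4, an activator of JNK, rose to 2485 normalised counts with CMA, against 761 without stimulation (1.71 ± 0.11, adjusted p = 5.10e-08), while Map2k7, another JNK activator, fell (-0.67 ± 0.10). Map2k3, an activator of p38, fell (-1.02 ± 0.21).

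Upstream, 3 of 18 MAP kinase kinase kinases rose and 6 fell. The shares over all genes tested, for this and the next lists, were 19.4% up and 17.9% down with CMA. Map3k8, which encodes the ERK pathway kinase TPL2, rose (1.73 ± 0.19, adjusted p = 7.73e-06), and Map3k1 (-1.53 ± 0.13) and Map3k11 (-1.63 ± 0.21) fell. Downstream, 1 of 10 MAP kinase-activated kinases rose, Mapkapk2 (0.95 ± 0.17), and 3 fell, among them Rps6ka1 (-1.10 ± 0.12), which encodes the ribosomal S6 kinase RSK1. Of 5 tested Sprouty, SPRED and related feedback inhibitors, 3 rose with CMA, Spred1 (2.40 ± 0.23, adjusted p = 1.67e-06), Spry2 (1.70 ± 0.27) and Errfi1 (0.83 ± 0.17), and 2 fell.

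Of 21 early genes linked to MAP kinase signalling, 6 rose and 7 fell with CMA, and 10 fell and 1 rose with C-178 plus CMA against CMA. The shares over all genes tested were 19.4% up and 17.9% down with CMA. For C-178 plus CMA against CMA they were 10.6% up and 13.5% down. Egr1, an immediate early transcription factor, averaged 269 normalised counts with C-178 plus CMA, 1134 with CMA and 244 without stimulation. It rose with CMA (2.24 ± 0.23, adjusted p = 3.41e-06) and fell with C-178 plus CMA against CMA (-2.12 ± 0.23, 6.67e-05). Jun (1.50 ± 0.19 and -1.94 ± 0.19), Ier3 (1.11 ± 0.21 and -1.98 ± 0.21) and Atf3 (1.51 ± 0.16 and -0.52 ± 0.16) rose and fell in the same pair of comparisons, which share the CMA libraries.

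**Figure D4:**
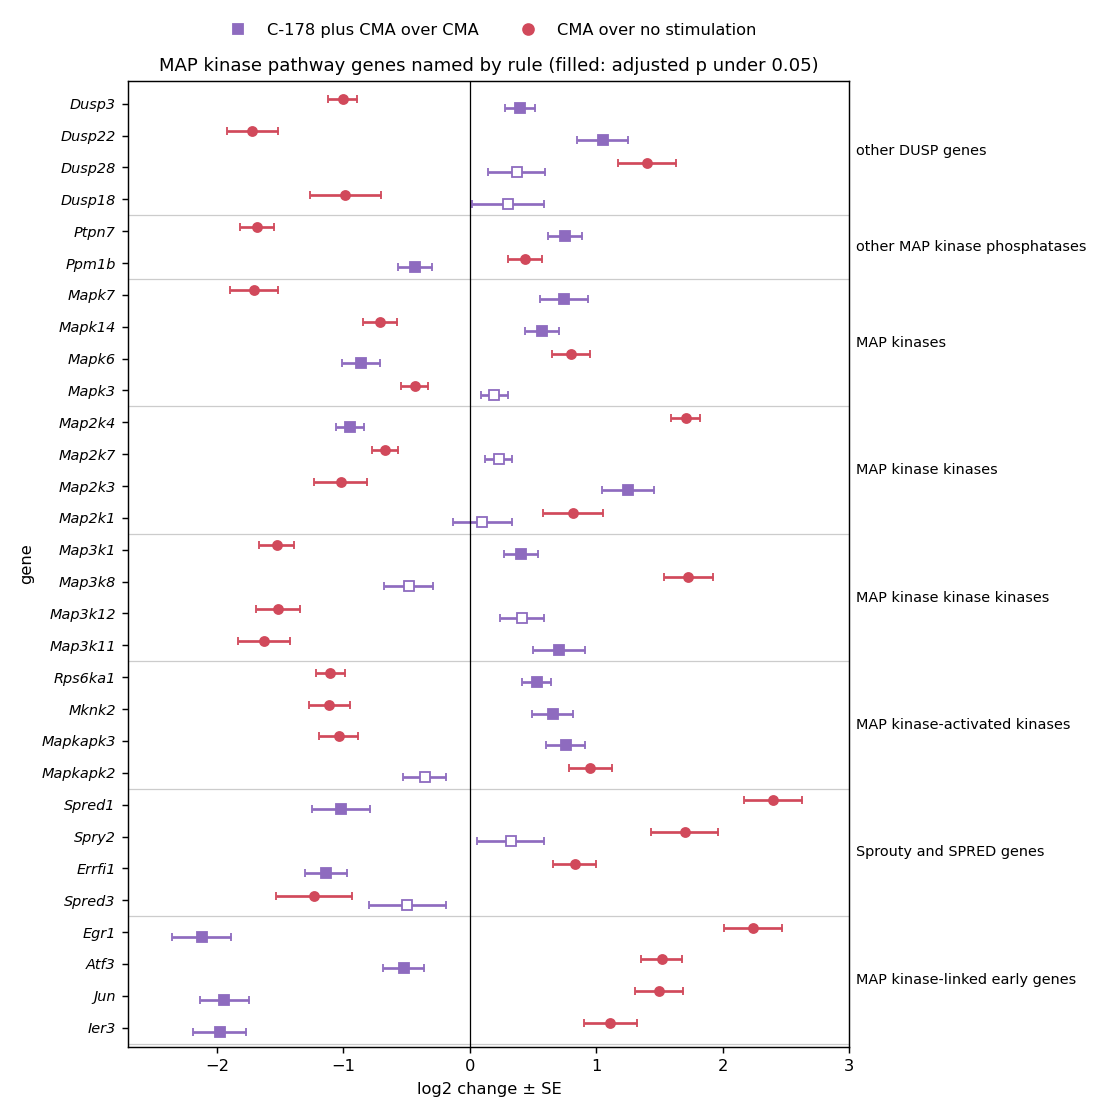
Log2 change ± SE (horizontal axis) of up to 4 genes from each MAP kinase pathway list, for C-178 plus CMA over CMA (squares) and CMA over no stimulation (circles), filled where the adjusted p was under 0.05. Egr1 lies at -2.12 and 2.24, Mapk7 at 0.74 and -1.71.

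The genes whose levels ran most like each member over the 12 libraries were found by Pearson's r on log2 values, as a description of libraries that share their treatments. Dusp16 was nearest to Ddx19b (r = 0.99, n = 12 libraries), and Dusp2 to Il33 (0.99). Dusp5 was nearest to Usp7 (0.99), Dusp10 to Dek (0.98) and Dusp7 to Itpripl1 (0.99). Dusp6 was nearest to Pld2 (0.98), Dusp4 to Zbtb42 (0.96), Dusp8 to Sh3bp4 (0.96) and Dusp1 to 6820431F20Rik (0.94). Malt1, the third gene in the list for Dusp1, had the same low point with both compounds, at 237 normalised counts against 539 with CMA, 489 with C-178 and 416 without stimulation.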

How the data were processed

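Messenger RNA of 12 macrophage libraries in 4 groups was measured. The authors deposited 1 table, whose unit is a normalised signal for each gene in each library, taken here as counts divided by size factors. Per the submitters' processing notes, Bowtie2 2.2.1 and limma 3.18.13 were used with mm10. The sources used here name neither the counting tool nor its strand handling. The table's 12 Cook's distance columns were left out. Because 2 unstimulated columns share a heading, that group's libraries were named 1, a and b.

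After division by each column's smallest step, 100% of values were whole (tolerance 0.01) and were taken as reads. Genes above 10 in at least 3 libraries were tested with limma 3.58.1 (R 4.3.3) on log2(value + 1), with a mean-variance trend over all 12 libraries and Benjamini-Hochberg adjustment per comparison, which was tested on simulated data. A fold is a ratio of group means, and the log2 change is a difference of mean log2 values. Adding 1 before the log tends to shrink the change of low genes. Where libraries are uneven, the log2 change can be larger or smaller than the fold gives. edgeR 4.0.16 and DESeq2 1.42.0 on the recovered reads were among the alternatives, with other pseudocounts, filters, scalings, thinning, array weights, fewer groups, a replicate block and each library left out. On those reads edgeR called 2235 genes up and 2047 down with CMA against no stimulation, 12 and 1 with C-178 against no stimulation, and 1350 and 1405 with C-178 plus CMA against CMA.

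Gene coordinates and exon lengths are from GENCODE M21 on mm10. The genes named are all 9 members, up to 4 genes of each other list called with CMA against no stimulation or with C-178 plus CMA against CMA, with the smallest adjusted p, and the 3 genes most like each member, of which the nearest are given. Members and lists were chosen with earlier results of these data known, and Malt1 was singled out after its values were seen.

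Residuals of same-numbered libraries of C-178 plus CMA and C-178 correlated at 0.45, 0.427 and 0.263, above 0.1. By that rule these groups were taken as paired, from the data and not from the labels. Other groups did not meet that rule (C-178 plus CMA with CMA: -0.141, 0.18 and -0.162). Residuals were taken from group means, so the correlations are not independent. In both groups taken as paired, library 1 was the deepest, at 36.4 M reads with C-178 plus CMA (library 2 at 8.81 M, library 3 at 7.77 M). With C-178 it had 28.5 M (library 2 at 7.14 M, library 3 at 7.05 M). The part of depth in these correlations was not tested. Between replicates, variation exceeded counting noise in every group.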

Additional observations from a re-analysis of the deposited data

Results flagged for a closer look

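The effect of CMA differed with and without C-178 for 6 of the 9 members, against 9.94% of all genes tested. The members were called by the test of the difference itself (limma, adjusted over all genes tested). With the replicate number as a block these calls were not kept. That fit holds 1 unstimulated library, and the CMA libraries did not meet the rule for pairing by number, so it cannot decide them. In the fit with no block, only the calls of Dusp2 and Dusp16 held without any 1 library. The difference in log2 change was -1.32 for Dusp1, where CMA gave a log2 change of -0.71 with C-178 and 0.61 without it. It was -1.705 for Dusp2 (1.40 with C-178 and 3.10 without) and -2.36 for Dusp5 (-0.20 and 2.16). For Dusp16 it was -2.311 (1.13 and 3.44). For the genes that CMA lowered, it was 1.097 for Dusp6 (-0.60 with C-178 and -1.70 without) and 1.33 for Dusp7 (-2.36 and -3.69). The C-178 plus CMA libraries were uneven for several of these genes, and without library 3 the difference was -1.80 for Dusp16, 0.995 for Dusp7 and -1.81 for Dusp5. The part of that library's own differences in the results was not tested.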

How the results depend on the processing

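No log2 change that was called for a member turned its direction under any alternative run. With CMA against no stimulation, the calls of Dusp2, Dusp5, Dusp6, Dusp7, Dusp10 and Dusp16 held under every alternative that could be run, and the call of Dusp1 was lost in 8 of 18 (adjusted p 0.000159 to 0.877). Dusp8 was called by edgeR, by DESeq2, with array weights and without CMA library 1. The causes of the shifts below were not tested, except that fewer libraries enter the fits of the compared groups alone, the replicate block and the left-out libraries. Each library left out leaves a group with 2 samples. Dusp4 and Dusp8 had 2 to 10 reads per CMA library, and the part of depth in their missing calls was not tested.

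For C-178 against no stimulation, array weights called 1 member up and 1 down, with 823 genes up and 1026 down. Quantile normalisation called 17 genes up and 1 down, edgeR 1 down, DESeq2 34 up and 4 down, and the 2 groups alone 27 up and 4 down. For CMA against no stimulation, array weights called 3672 genes up and 3708 down, and the 2 groups alone 3075 down. For C-178 plus CMA against CMA, the 2 groups alone called 1 member up, 261 genes up and 593 down. Against C-178, the same kind of fit for C-178 plus CMA called 1 member up and 1 down, 738 genes up and 600 down, and 1 member was down with no filter. Against no stimulation, for C-178 plus CMA, 1 member was up with no filter and 1 with the 2 groups alone (809 genes up and 722 down), and 2 members were down with array weights. For the interaction, thinned reads left 1 member positive, no filter gave 293 genes positive, DESeq2 767, and array weights 1438 positive and 1673 negative.

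The replicate block could use only the 10 libraries with a number, with 1 unstimulated library among them. It called 0 members up and 2 down for both compounds against no stimulation (541 genes up and 360 down), and 0 members positive and 0 negative in the interaction (4 and 28 genes). For CMA against no stimulation it called 1158 genes up and 813 down, with Dusp1 lost, and for C-178 against no stimulation 0 genes up. Between C-178 plus CMA and C-178, the groups taken as paired, it changed the call of Dusp6 and of no other member.

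With 1 library left out, the members called up and down ranged over 4 to 6 and 2 to 2 (CMA against no stimulation), 0 to 0 and 0 to 0 (C-178 against no stimulation), 2 to 2 and 3 to 5 (C-178 plus CMA against CMA), 1 to 3 and 1 to 3 (against C-178), 1 to 4 and 1 to 2 (against no stimulation), and 0 to 2 and 2 to 5 (interaction). The genes called up and down ranged over 1761 to 2075 and 1536 to 1810, 4 to 10 and 0 to 3, 597 to 2179 and 747 to 2532, 1056 to 2114 and 885 to 2067, 889 to 1670 and 762 to 1672, and 122 to 1681 and 209 to 2018 in the same order.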
